A study of Danio rerio with 18 samples.

Results

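Gene expression was compared between 1 and 4 days post amputation (dpa) in the regenerating caudal fin of zebrafish that lack s1, a silencer named for its association with regeneration. Silencers are regulatory DNA elements that hold down the transcription of their target genes. The comparison sets 3 knockout (KO) libraries at 4 dpa against 3 KO libraries at 1 dpa, 6 of the 18 libraries of the study, across the 21589 of 32520 gene IDs that reached a normalised count of at least 10 in at least 3 of these 6 libraries. The KO fish are homozygous for the loss of s1 and were derived from the outbred Ekkwill (EK) strain, and the wild-type (WT) fish, used here for comparison at the same times, are their EK siblings. All fish were about 4 to 8 months old, and no other treatment is named apart from anaesthesia for the procedure. Fins were cut at 50% of their length, and each library was made from the pooled clips of 10 fish, with separate pools for the 3 replicates of a group. A library therefore averages over fish, cell types and fin rays, and whether the knockout line descends from 1 founder is not given in the sources used here. In such bulk tissue, a change in the number of cells of a type and a change in the RNA per cell cannot be told apart.

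A cut zebrafish fin is first covered by epidermal cells that migrate over the wound, with inflammation and clearance of debris. Beneath this wound epidermis, fibroblasts and dedifferentiated osteoblasts gather into a blastema, a mound of dividing progenitor cells, which then grows out and lays down new fin rays. Fin rays are bone formed directly from osteoblasts without a cartilage template, and their growing tip is stiffened by actinotrichia, brush-like bundles of unmineralised fibres. The day after amputation belongs to the wound epidermis stage and the fourth day to the outgrowth stage, so the comparison asks which genes change between them.

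The libraries held 58.6 M to 108 M reads in genes (M, 1e6 reads). The 5 most abundant genes of the study held 72.0% and 76.9% of the reads in 1 dpa replicates 2 and 3 and 79.0% to 82.9% at 4 dpa, but 10.9% in 1 dpa replicate 1. The remaining genes, whose depth limits most results, received 52.2 M, 30.2 M and 23.9 M in the 1 dpa replicates and 16.4 M to 19.7 M reads at 4 dpa. Replicate 1 at 1 dpa stood apart from its group: its Spearman correlation across genes with replicates 2 and 3 was 0.952 each, against 0.988 between these, and 0.984 to 0.986 among the 4 dpa replicates. It was the highest 1 dpa library for 83.3% of the genes called lower at 4 dpa, against 43.3% of all tested genes, and the lowest for 63.8% of those called higher. Where leaving out this or another library ends a call or moves a count strongly, that value is given beside the result; its part in the results was not tested otherwise. Replicates are listed in the order 1, 2, 3.

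Markers of the labelled tissue were present, apart from col1a1a. This connective tissue collagen gene was low, at 7.14, 1.74 and 0 at 1 dpa and at 24.6, 16.9 and 35.2 at 4 dpa. The epidermal gene TP63 was at 8092, 11604 and 10356 at 1 dpa and at 6612, 7124 and 7218 at 4 dpa, the connective tissue collagen gene COL1A2 at 20316, 19681 and 17584 and then 95486, 90874 and 103605, and the osteoblast transcription factor gene SP7 at 187, 192 and 154 and then 837, 1051 and 952. Genes of pancreas, liver and heart (ins, prss1, fabp10a, NKX2-5 and cmlc1) reached at most 15.6 in these 6 libraries. s1 is a regulatory element and not a gene of the table, so its loss could not be checked from a count.

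Between 1 and 4 dpa, 2672 genes rose (12.4% of those tested) and 3710 fell (17.2%), together 29.6%, in KO fins, by limma on log2(normalised count + 1) with adjusted p under 0.05; a gene past this threshold is called. The median change was 1.04 on the log2 scale among genes called higher and -1.29 among genes called lower, with a median of -0.01 over all tested genes. Of the calls, 1422 higher genes (6.59% of those tested) and 2517 lower genes (11.7%) changed by at least 2-fold, and 87 higher genes (0.403%) and 101 lower genes (0.468%) by at least 8-fold. The 2 groups of 3 libraries did not overlap for 51.3% of tested genes. Without 1 dpa replicate 1, 1701 genes were called higher (7.88%) and 1612 lower (7.47%), of which 1638 and 1559 were among the calls above, and 0 of the 6382 calls turned sign. Without 4 dpa replicate 3 the counts were 1733 and 1863, and without 4 dpa replicate 2 they were 1924 and 2436. Scaling to all other genes, that is, to all but the 5 dominant ones, moved the median of all genes to 0.43 and the counts to 2769 higher (12.8%) and 1867 lower (8.65%), so that 59.7% of calls were higher, against 41.9% with the deposited scaling. Changes are therefore best read relative to the median gene.

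**Figure D1:**
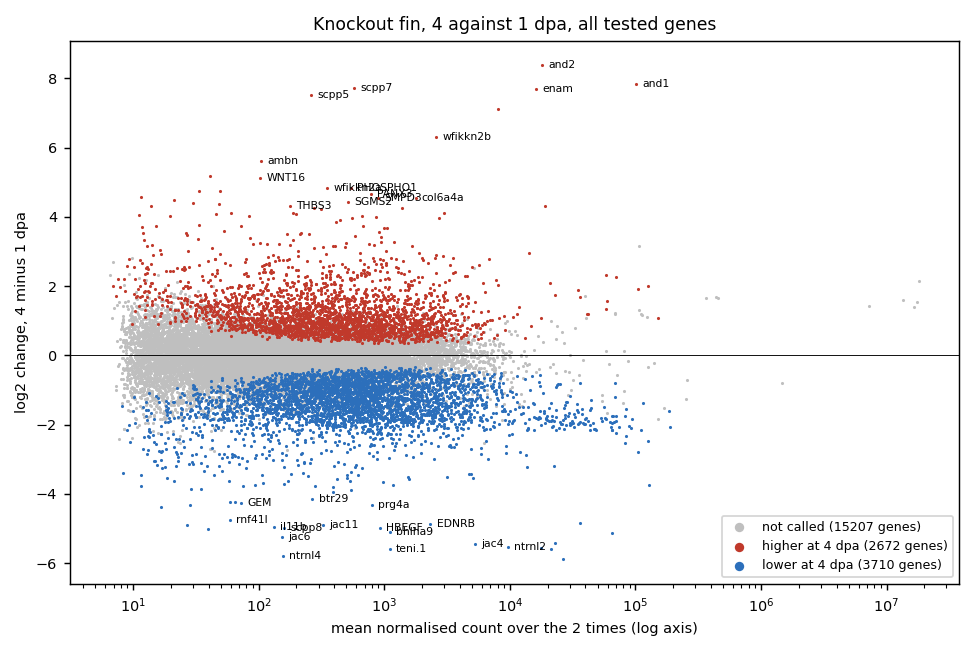
Log2 change from 1 to 4 dpa (vertical axis) against the mean normalised count over both times (horizontal log axis) for the 21589 tested genes of KO fins, with 1 point per gene, red for the 2672 called higher, blue for the 3710 called lower and grey for the rest. The labelled genes are those with a descriptive symbol and the largest changes; and2, and1, scpp7, enam and scpp5 lie above a log2 change of 7.

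The largest increases were those of structural proteins of the fin edge and of mineralised tissue. The actinodin genes and1 and and2 encode the fibre proteins of actinotrichia. and1 stood at 655, 1110.5 and 915 at 1 dpa and at 200234, 235330 and 169744 at 4 dpa (log2 7.84, SE 0.26, adjusted p = 3.22e-11). For and2 the counts were 93.5, 97.7 and 134 at 1 dpa and 36557, 39073 and 32448 at 4 dpa (log2 8.38, SE 0.39, adjusted p = 7.66e-10). Both genes were named by a rule that required groups without overlap. In uncut KO fins at 0 dpa they had been at 632, 1001 and 593 (and1) and 76.1, 157 and 79.96 (and2), near the 1 dpa level. Of the 8 tested genes listed for actinotrichia and fin ray joints, 7 rose and 1 fell, with a median log2 change of 2.36, and these counts were the same with any 1 of the 6 libraries left out. Actinotrichia and fin ray joint genes called lower numbered 0 with scaling to all other genes. pthlha, a parathyroid hormone-like peptide gene of the joint region, rose from 117, 181 and 65.3 to 542, 835 and 502 (log2 2.44, adjusted p = 0.00021). The cytokine receptor-like gene crlf1a was the member that fell, from 626, 698 and 691 to 376, 366 and 325 (log2 -0.92, adjusted p = 0.000555), a call lost with scaling to all other genes (adjusted p = 0.28).

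The secreted calcium-binding phosphoproteins (SCPP) are matrix proteins of bone, scales and teeth, and enamelin (enam) and ameloblastin (ambn) are members of this family first known from enamel. enam stood at 197, 136 and 131 at 1 dpa and 37809.9, 28045 and 30154 at 4 dpa (log2 7.70, SE 0.31, adjusted p = 2.39e-10). scpp7 went from 1.43, 3.49 and 11.3 to 1694, 723 and 1021 (log2 7.72, adjusted p = 1.97e-07). scpp5 was at 1.43, 0 and 6.76 at 1 dpa, which rests on 8 reads in all, and at 753, 512 and 296 at 4 dpa (log2 7.51, adjusted p = 5.65e-07). ambn went from 7.14, 0 and 6.76 to 296, 135 and 179 (log2 5.604, adjusted p = 4.09e-05). These 4 genes were named by a rule that required a large change and groups without overlap, so these traits are no further result. Not all of the family moved this way: scpp8 was at 445, 281 and 205 at 1 dpa and at 8.94, 7.79 and 8.12 at 4 dpa (log2 -4.995, adjusted p = 1.48e-05), so it fell. scpp5 and ambn passed the filter only through their 4 dpa counts and scpp8 only through its 1 dpa counts.

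Genes of mineralisation rose with them. PHOSPHO1, a phosphatase that starts mineral formation inside matrix vesicles, stood at 21.4, 52.3 and 39.4 at 1 dpa and 976, 953 and 1197 at 4 dpa (log2 4.83, SE 0.32, adjusted p = 4.41e-08). SMPD3, a neutral sphingomyelinase needed for bone mineralisation in mice, stood at 52.1, 79.4 and 90.1 and then 1728, 1676 and 1715 (log2 4.55, adjusted p = 2.76e-09), and SGMS2, a sphingomyelin synthase, at 77.8, 40.1 and 27.0 and then 1033, 935 and 959 (log2 4.44, adjusted p = 2.65e-07). PANX3, a membrane channel of osteoblasts and chondrocytes, went from 64.2, 59.3 and 52.9 to 1475, 1537 and 1515 (log2 4.66, SE 0.17, adjusted p = 8.87e-11). PANX3 and SGMS2 had been higher at 0 dpa, at 209.6, 281 and 191 and 196, 339 and 201, than at 1 dpa, whereas PHOSPHO1 had been at 59.6, 27.9 and 38.9. Of 25 tested osteoblast and bone mineral genes, 19 rose and 1 fell (median log2 1.29); the higher count lay between 16 and 18 when single libraries were left out. The member that fell was tnfrsf11b, which encodes osteoprotegerin, a decoy receptor that restrains osteoclasts, from 452, 276 and 312 to 89.4, 68.8 and 56.8 (log2 -2.25, adjusted p = 0.00426). Among 15 osteoclast genes, 3 rose (20%, against 12.4% of all tested genes) and 0 fell (0%, against 17.2%). They were tnfsf11, the gene of the osteoclast differentiation ligand RANKL (log2 0.96), its receptor gene tnfrsf11a (log2 0.84) and csf1ra, a receptor gene shared with macrophages and xanthophores (log2 1.03), a call lost without 1 dpa replicate 1 or 3 or 4 dpa replicate 1, 2 or 3 (adjusted p = 0.0502 to 0.229) and with scaling to all other genes (adjusted p = 0.0774) and with edgeR (adjusted p = 0.0512). Osteoclast genes called lower numbered 1 without 1 dpa replicate 1.

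**Figure D2:**
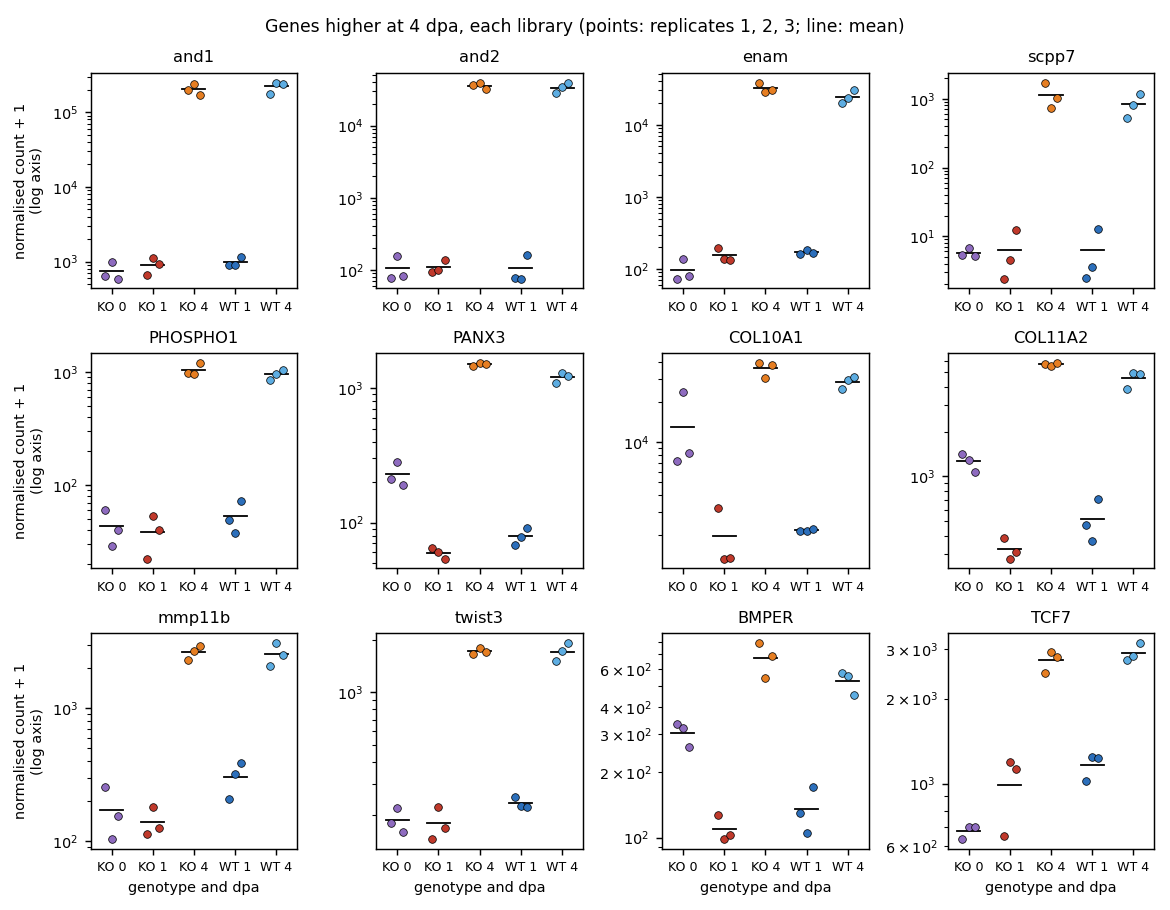
Normalised count + 1 (log axis) of 12 genes that rose in KO fins from 1 to 4 dpa, in each KO library at 0, 1 and 4 dpa and each WT library at 1 and 4 dpa; points are replicates and lines are group means. For each gene all 4 dpa KO points lie above all 1 dpa KO points, as they do for 2643 of the 2672 genes called higher. COL10A1 and COL11A2 were also lower at 1 dpa than at 0 dpa.

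The collagen scaffold rose almost as a block. Of 21 tested fibrillar and associated collagens, 19 were called higher and 0 lower (median log2 1.61, range 0.33 to 4.32), and the higher count lay between 17 and 19 when single libraries were left out. A copy of COL10A1, a short-chain collagen of osteoblasts in fish, stood at 3232, 1332 and 1344 at 1 dpa and 39527, 30374 and 38156 at 4 dpa (log2 4.32, SE 0.42, adjusted p = 2.03e-06). At 0 dpa its counts had been 7278, 23837 and 8360.1, so the 1 dpa libraries were the lowest of the 3 times. COL11A2, a collagen that nucleates fibrils, followed the same course, with 1411, 1292 and 1076 at 0 dpa, 387, 280.0 and 312 at 1 dpa and 5671, 5518 and 5760.0 at 4 dpa (log2 4.12, SE 0.21, adjusted p = 1.81e-09). The collagen VI gene col6a4a, outside this list, stood at 127, 157 and 154 and then at 3472, 3164 and 3593 (log2 4.54, adjusted p = 3.89e-10). Copies of several of these genes share a symbol, and reads of near-identical copies cannot be told apart with certainty.

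The machinery that folds, processes and cross-links collagen rose more modestly: 21 of 30 genes were called higher and 0 lower (median log2 0.84), and the higher count lay between 17 and 20 when single libraries were left out. A copy of BMP1, the protease that trims procollagen, went from 1233, 1598 and 1630.3 to 7463, 7002 and 7471 (log2 2.31, adjusted p = 1.49e-06). LOX, which cross-links collagen and elastin, went from 528, 687 and 563 to 2918, 2816 and 2231 (log2 2.16, adjusted p = 7.83e-06). P4HA1, a subunit of prolyl hydroxylase, rose from 182, 147 and 142 to 747, 631 and 589.8 (log2 2.06, adjusted p = 1.61e-06). Among 24 fibroblast genes, 14 rose and 2 fell (median log2 0.92). The higher count lay between 10 (without 4 dpa replicate 1) and 16 (without 1 dpa replicate 1) when single libraries were left out. The largest change of this list, log2 7.84, is that of and1, described above. Fibroblast genes that rose included the matrix genes FBLN2 (fibulin 2, log2 3.01) and DCN (decorin, log2 1.85). Those that fell were a copy of TPH1, which encodes a tryptophan hydroxylase and marks distal blastema cells, from 1600.5, 2002 and 1613 to 291, 475 and 306 (log2 -2.31, adjusted p = 3.31e-06), and ALDH1A2, described with retinoic acid below.

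Enzymes that cut matrix, and their inhibitors, moved both ways. Of 22 matrix proteases and inhibitors, 14 rose and 5 fell, which is 63.6% and 22.7% against 12.4% and 17.2% of all tested genes. The higher count lay between 11 (without 1 dpa replicate 1) and 14 when single libraries were left out. The stromelysin 3 genes mmp11b and MMP11 rose, the first from 111, 179.7 and 124 to 2299, 2694 and 2944 (log2 4.27, SE 0.32, adjusted p = 1.37e-07) and the second from 51.4, 73.3 and 74.3 to 655, 503 and 603 (log2 3.14, adjusted p = 4.2e-05). A copy of MMP15, a membrane-bound protease, went from 101, 150.0 and 187 to 1849, 1649.5 and 2003 (log2 3.68, adjusted p = 1.08e-07). In the other direction, a copy of TIMP2, an inhibitor of these enzymes, fell from 8401, 9666 and 8134 to 787, 765 and 890.1 (log2 -3.42, SE 0.24, adjusted p = 6.33e-08), having been at 362, 539.7 and 557 at 0 dpa, while another copy rose (log2 1.71, adjusted p = 0.00237). The collagenase gene mmp13a fell from 422, 498 and 459 to 81.6, 94.8 and 64.9 (log2 -2.51, adjusted p = 0.00415) and adam8a, a membrane protease gene of immune and wound cells, from 6499, 5634 and 5793 to 1466, 1321 and 1515 (log2 -2.06, adjusted p = 1.67e-06).

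Glycoproteins of the provisional wound matrix moved both ways, with 8 of 19 genes higher and 5 lower. These are 42.1% and 26.3%, against 12.4% and 17.2% of all tested genes. Provisional matrix genes called lower numbered 2 with scaling to all other genes. Both tenascin C copies rose, the more abundant one from 4995, 11304 and 8761 to 32681, 31813 and 36354 (log2 2.09, adjusted p = 7.66e-06), as did tnn, a related tenascin gene, from 306, 424 and 413 to 2152, 2249.6 and 2124 (log2 2.52, adjusted p = 6.5e-07). A copy of FN1, the fibronectin gene, was at 5604, 4784 and 5271 at 0 dpa, at 137421, 355542 and 355717 at 1 dpa and at 76916, 75549 and 108773 at 4 dpa, highest at the early time (log2 -1.59, adjusted p = 0.00193), a call lost with scaling to all other genes (adjusted p = 0.0782). In this gene 1 dpa replicate 1 was the lowest of its group, and without it the change was larger (log2 -2.05, adjusted p = 2.79e-05). The hyaluronan receptor gene cd44a fell from 14133, 8086 and 8336 to 1765, 1617 and 1253 (log2 -2.69, adjusted p = 1.43e-05) and the syndecan gene sdc4 from 8560.5, 4903 and 4514 to 1179, 1044 and 1006 (log2 -2.42, adjusted p = 1.5e-05).

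Transcription factors of the blastema and of fin patterning mostly rose or were not called: 12 of 26 were higher and 2 lower. Transcription factors of this list called lower numbered 1 with scaling to all other genes. twist3, a mesenchymal factor, stood at 145, 221 and 167 at 1 dpa and at 1653, 1795 and 1694 at 4 dpa (log2 3.29, SE 0.21, adjusted p = 2.55e-08). SALL4, a zinc finger factor of limb and fin buds, rose from 24.3, 34.9 and 34.9 to 215, 171 and 208 (log2 2.63, adjusted p = 0.000419). The homeobox gene msx1a, a marker of blastema cells, went from 2.85, 3.49 and 2.25 to 49.2, 20.8 and 21.6 (log2 2.93, adjusted p = 0.00813), at low counts. msx1a passed the filter only through its 4 dpa counts. SALL1 fell in a copy and rose in the other (log2 1.22, adjusted p = 0.00208). The copy that fell was at 8.7, 19.2 and 10.52 at 0 dpa, at 482, 508 and 482 at 1 dpa and at 109.5, 122 and 111 at 4 dpa (log2 -2.09, adjusted p = 9.12e-05). A copy of LMX1B, the dorsal limb factor, fell from 243, 367 and 297 to 106, 144 and 139 (log2 -1.21, adjusted p = 0.000727), a call lost with scaling to all other genes (adjusted p = 0.145), and another rose (log2 1.78, adjusted p = 3.57e-07). bhlha9, a basic helix-loop-helix factor of the apical ridge of limbs in mammals, fell from 3191, 1587 and 1662 to 70.4, 57.1 and 48.7 (log2 -5.11, SE 0.35, adjusted p = 5.34e-08), to near its 0 dpa counts of 36.5, 65.4 and 45.2.

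Transducers, receptors and feedback targets of growth signalling pathways were among the genes that rose. In the hedgehog and bone morphogenetic protein (BMP) list, 19 of 34 genes were higher and 3 lower. The higher count lay between 14 (without 1 dpa replicate 1) and 19 when single libraries were left out. A copy of GLI2, a hedgehog transcription factor, went from 162.7, 315 and 317 to 1299, 1398 and 1539 (log2 2.47, adjusted p = 2.82e-05). A copy of SHH, a hedgehog ligand, was low throughout, at 7.14, 1.74 and 9.01 and then 35.8, 44.2 and 20.3 (log2 2.44, adjusted p = 0.027), a call lost without 1 dpa replicate 1 or 2 or 4 dpa replicate 1 or 2 (adjusted p = 0.055 to 0.102). This copy passed the filter only through its 4 dpa counts. Another hedgehog ligand gene, ihhb, went from 47.1, 58.4 and 38.3 to 0, 10.4 and 13.5 (log2 -3.14, adjusted p = 0.0287), a call lost without 1 dpa replicate 1 or 2 or 4 dpa replicate 1 (adjusted p = 0.0666 to 0.145) and with scaling to all other genes (adjusted p = 0.0575). ihhb passed the filter only through its 1 dpa counts. BMPER, a secreted BMP modulator, rose from 126, 97.7 and 101 to 786, 543 and 689 (log2 2.61, adjusted p = 1.58e-07), while a copy of the ligand gene BMP2 fell from 647, 504 and 475 to 308, 226 and 262 (log2 -1.02, adjusted p = 0.0069), a call lost with scaling to all other genes (adjusted p = 0.0841). Hedgehog and BMP pathway genes called lower numbered 1 without 1 dpa replicate 1 or 4 dpa replicate 1 and 0 with scaling to all other genes.

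In the Wnt list, 15 of 39 genes rose and 1 fell, and the higher count lay between 12 and 15 when single libraries were left out. Wnt pathway genes called lower numbered 0 with scaling to all other genes. NKD1, a feedback inhibitor induced by Wnt signalling, went from 197, 257 and 225 to 885, 935 and 956 (log2 2.03, adjusted p = 2.23e-07). The R-spondins RSPO1 and RSPO2, which strengthen Wnt signals, rose with log2 changes of 1.90 and 1.88. WIF1, a secreted Wnt inhibitor, fell from 1086, 633 and 677 to 455, 384 and 300.3 (log2 -1.05, adjusted p = 0.00381), a call lost with scaling to all other genes (adjusted p = 0.141). Outside this list, the ligand gene WNT16 showed a dip at the early time, with 31.3, 63.5 and 38.4 at 0 dpa, 1.43, 8.72 and 6.76 at 1 dpa and 227, 210.4 and 162 at 4 dpa (log2 5.13, SE 0.44, adjusted p = 5.39e-07). WNT16 passed the filter only through its 4 dpa counts. TCF7, a transcription factor of Wnt signalling that is in the Wnt and the lymphocyte lists, rose from 649, 1192 and 1121 to 2470.1, 2916 and 2814 (log2 1.51, adjusted p = 4.93e-05). Another ligand gene, WNT5A, went from 318, 384 and 370.4 to 905, 830.0 and 753 (log2 1.21, adjusted p = 0.0126), a call lost without 1 dpa replicate 1 (adjusted p = 0.0528).

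Among 17 fibroblast growth factor (FGF) receptors and feedback targets, 12 rose and 0 fell; the higher count lay between 6 and 9 (6 without 1 dpa replicate 1 and 7 without 4 dpa replicate 1, 2 or 3) when single libraries were left out. fgfrl1b, a receptor without a kinase domain, rose from 155, 237 and 169 to 874, 805 and 958 (log2 2.25, adjusted p = 1.97e-07), and IL17RD (Sef), a feedback inhibitor, from 638, 939.5 and 769 to 2302, 2463 and 2579.7 (log2 1.66, adjusted p = 7.49e-07). SPRY1, a Sprouty inhibitor, went from 46.4, 128 and 125 to 387, 323 and 399 (log2 2.01, adjusted p = 0.0182), a call lost without 1 dpa replicate 1 or 4 dpa replicate 3 (adjusted p = 0.0612 to 0.107). 1 dpa replicate 1 was its lowest library.

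In the retinoic acid list, ALDH1A2, the enzyme that makes retinoic acid, was at 480.2, 538 and 475 at 1 dpa and at 172, 125 and 246 at 4 dpa (log2 -1.51, SE 0.22, adjusted p = 0.000119), and at 117, 125 and 103 at 0 dpa. The degrading enzymes CYP26B1 and CYP26C1 rose, the first from 467, 878 and 585 to 1926, 2018 and 1839.7 (log2 1.63, adjusted p = 0.00779) and the second from 32.8, 43.6 and 30.4 to 132, 116 and 104 (log2 1.70, adjusted p = 0.00198). A copy of CRABP1, a retinoic acid binding protein, fell from 1801, 577 and 445 to 163.2, 97.4 and 103 (log2 -2.705, adjusted p = 0.00182). In all, 9 of 23 genes of this pathway were higher and 4 lower (39.1% and 17.4%, against 12.4% and 17.2% of all tested genes). The higher count lay between 5 and 8 (5 without 4 dpa replicate 2 or 3) when single libraries were left out.

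The transforming growth factor beta (TGF-beta) and activin list held 4 higher and 7 lower calls among 32 genes. TGF-beta and activin pathway genes called higher numbered 2 without 1 dpa replicate 1. TGF-beta and activin pathway genes called lower numbered 3 with scaling to all other genes. A copy of INHBA, which encodes the activin A subunit, was at 281, 544 and 395 at 0 dpa, at 3398, 2607 and 3279.6 at 1 dpa and at 666, 629.9 and 544 at 4 dpa (log2 -2.33, SE 0.28, adjusted p = 1.81e-05). INHBB, the activin B subunit, rose in the copy that passed, from 148, 143.1 and 142 to 371, 317 and 346 (log2 1.25, adjusted p = 2.05e-05), and TGFB3 rose from 410.3, 534 and 537 to 1407, 1300.2 and 1346 (log2 1.46, adjusted p = 0.00488). Activin subunit genes thus moved in opposite directions. The growth factor antagonists wfikkn2a and wfikkn2b, whose mammalian relative binds the activin family members GDF8 and GDF11, rose by log2 4.85 and 6.30. wfikkn2b went from 38.5, 85.5 and 76.6 to 5460.0, 5450.0 and 4380.2. In the Notch list 4 of 26 genes were higher and 4 lower (15.4% and 15.4%), near the shares of all tested genes (12.4% and 17.2%). The ligand gene jag1a fell from 4557, 7804 and 7529 to 1412, 1573 and 1526 (log2 -2.101, SE 0.19, adjusted p = 1.08e-06), to its 0 dpa range of 1647, 1549 and 1921, and a copy of NRARP, a feedback target of Notch, fell by 1.15 on the log2 scale, a call lost with scaling to all other genes (adjusted p = 0.139). The target gene HEY1 rose from 101, 209 and 119 to 376, 457 and 384 (log2 1.56, adjusted p = 0.000624). Notch pathway genes called higher numbered 1 without 1 dpa replicate 1 or 4 dpa replicate 2 or 3 and 2 without 1 dpa replicate 3 or 4 dpa replicate 1. Notch pathway genes called lower numbered 1 with scaling to all other genes.

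Many of the largest decreases were of genes whose counts were highest at 1 dpa. ntrnl2 was at 101, 201 and 118 at 0 dpa, at 29999, 15017 and 11442 at 1 dpa and at 371, 358 and 386 at 4 dpa (log2 -5.54, SE 0.42, adjusted p = 1.37e-07). jac4 was at 69.1, 138 and 79.4 at 0 dpa, at 15916, 8641 and 6262 at 1 dpa and at 184, 248 and 222 at 4 dpa (log2 -5.45, adjusted p = 1.33e-07). The related symbols ntrnl4, jac6 and jac11 fell as well, by log2 changes of -5.79, -5.25 and -4.90, and in these 5 genes 1 dpa replicate 1 was the highest of its group. teni.1 fell from 2963, 3003 and 563 to 24.6, 31.2 and 54.1 (log2 -5.59, adjusted p = 1.72e-05). A copy of EDNRB, an endothelin receptor, was at 72.6, 73.1 and 72.1 at 0 dpa, at 3752, 4448 and 5333 at 1 dpa and at 145, 200.02 and 120.4 at 4 dpa (log2 -4.87, SE 0.22, adjusted p = 4.84e-10), with 1 dpa replicate 1 the lowest of its group. Others among the largest decreases were GEM, a small GTPase gene (log2 -4.25), and btr29, a bloodthirsty-related gene (log2 -4.16). rnf41l, named for its likeness to a ring finger gene, fell from 142.7, 96.8 and 106 to 2.24, 5.2 and 2.71 (adjusted p = 6.2e-07), a level that rests on 8 reads in all, so its fitted change depends on the pseudocount. rnf41l passed the filter only through its 1 dpa counts. prg4a, the lubricin gene, differed in its course: it was at 1806, 1906 and 1775 at 0 dpa and still at 1518, 1381 and 1640.4 at 1 dpa before it fell to 82.7, 81.8 and 60.9 (log2 -4.32, adjusted p = 1.56e-06). The calls of these genes held in every alternative setting.

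**Figure D3:**
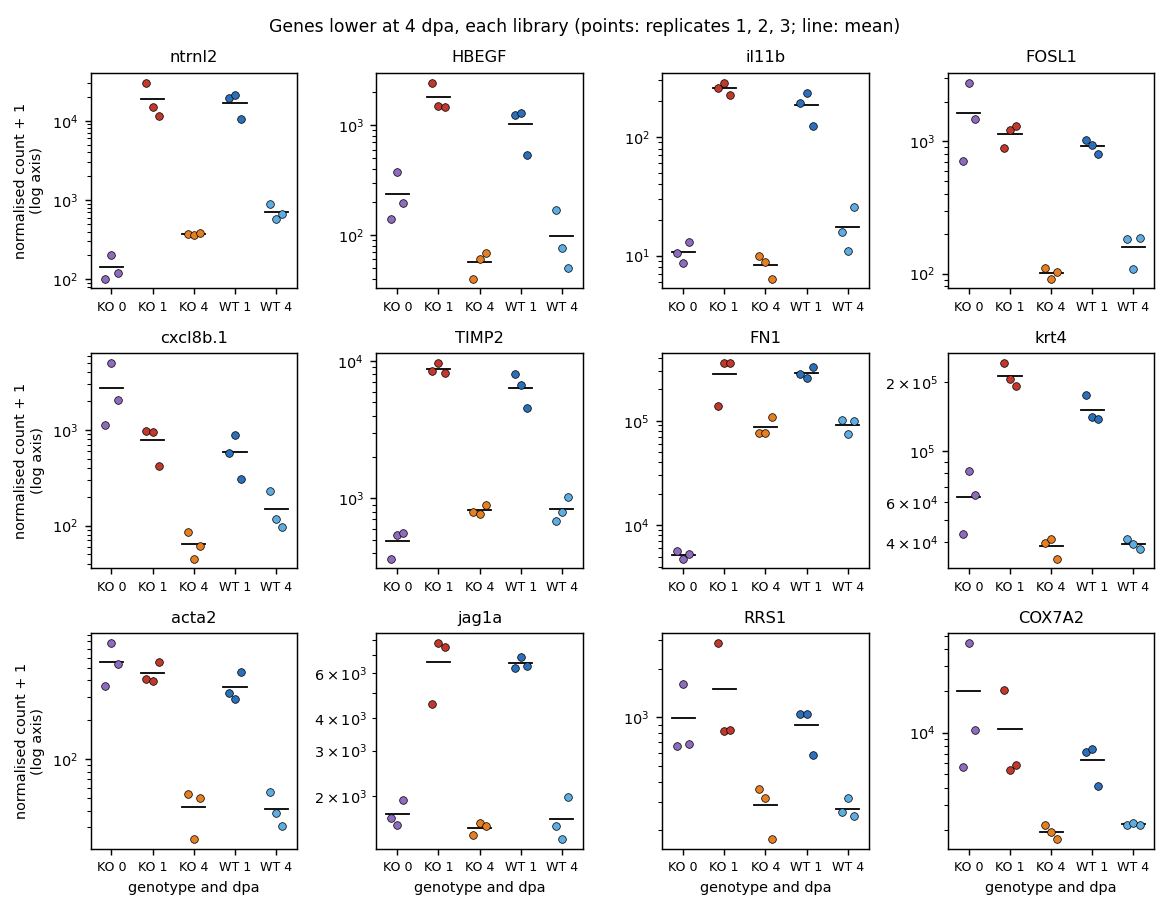
Normalised count + 1 (log axis) of 12 genes that fell in KO fins from 1 to 4 dpa, in each KO library at 0, 1 and 4 dpa and each WT library at 1 and 4 dpa; points are replicates and lines are group means. ntrnl2, il11b and TIMP2 peaked at 1 dpa, acta2 and cxcl8b.1 were already high at 0 dpa, and RRS1 and COX7A2 show 1 dpa replicate 1 far above the other 1 dpa replicates.

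Many wound ligands fell as well: of 22 wound and blastema ligands, 12 fell and 4 rose. These make 54.5% and 18.2%, against 17.2% and 12.4% of all tested genes. HBEGF, an epidermal growth factor receptor ligand, was at 137, 377 and 195 at 0 dpa, at 2423, 1498 and 1460.2 at 1 dpa and at 39.1, 59.7 and 67.6 at 4 dpa (log2 -4.98, SE 0.47, adjusted p = 1.34e-06); its relative hbegfa went from 4211, 2211 and 2310.3 to 232, 221 and 248 (log2 -3.57, adjusted p = 1.77e-06). il11b, an interleukin 11 gene, stood at 9.57, 7.7 and 12.1, 258, 284 and 225 and 8.94, 7.79 and 5.41 in the 0, 1 and 4 dpa libraries (log2 -4.95, SE 0.38, adjusted p = 1.46e-07). il11b passed the filter only through its 1 dpa counts. MDK, the heparin-binding growth factor midkine, moved both ways: a copy fell (log2 -1.24, adjusted p = 0.00685) and the other rose from 8.56, 13.96 and 9.01 to 96.1, 90.9 and 51.4 (log2 2.78, adjusted p = 0.00132). The copy that rose passed the filter only through its 4 dpa counts. The lower count of this list lay between 12 and 13 and the higher count between 2 and 4 (2 without 1 dpa replicate 1) when single libraries were left out.

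AP-1 transcription factors and other immediate early genes, which are induced by injury, were lower at 4 dpa in 14 of 21 cases and higher in 2. These make 66.7% and 9.52%, against 17.2% and 12.4% of all tested genes. Summed over the listed genes, counts were 103489, 158313 and 128935 at 0 dpa and 56084, 61835 and 54685 at 1 dpa. At 4 dpa the sums were 32155, 31844 and 32106, so the list as a whole was highest in uncut fins and not at 1 dpa. FOSL1 fell from 888, 1213 and 1308 to 108, 90.9 and 103 (log2 -3.47, SE 0.44, adjusted p = 3.47e-05), fosl1b from 384, 123 and 110.3 to 11.2, 12.99 and 13.5 (log2 -3.69, adjusted p = 9.91e-05) and ATF3, a stress-induced factor, from 231, 204 and 171 to 22.4, 20.8 and 32.5 (log2 -2.97, adjusted p = 4.53e-05). JUN and klf2a were the members called higher, JUN from 994, 1023 and 928 to 2043, 2016 and 1644 (log2 0.95, adjusted p = 0.0413), a call lost with any 1 library left out (adjusted p = 0.0669 to 0.107) and klf2a from 3187, 3615 and 4886 to 10359, 8846 and 9127 (log2 1.297, adjusted p = 0.0349), a call lost without 1 dpa replicate 1 or 2 or 4 dpa replicate 1, 2 or 3 (adjusted p = 0.0716 to 0.124) and without the 4 libraries with under 20% of reads in the dominant genes (adjusted p = 0.0562). The higher count lay between 0 and 1 (0 without 1 dpa replicate 1 or 2 or 4 dpa replicate 1, 2 or 3 and 1 without 1 dpa replicate 3) when single libraries were left out. The lower count lay at 13 whichever library was left out.

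Inflammation genes were lower or not called: of 28 inflammatory cytokine and NF-kB genes, 11 were lower and 0 higher, and the lower count lay between 8 and 11 when single libraries were left out. The calls make 39.3% lower and 0% higher, against 17.2% and 12.4% of all tested genes. cxcl8b.1, a neutrophil-attracting chemokine gene, was at 1123, 5000.3 and 2045 at 0 dpa, at 973, 952 and 419.9 at 1 dpa and at 83.8, 44.2 and 59.5 at 4 dpa (log2 -3.57, SE 0.58, adjusted p = 0.000348). Its relative cxcl8a went from 318, 201 and 176 to 17.9, 39.0 and 27.1 (log2 -3.02, adjusted p = 0.000558), and il1b, a cytokine gene of early wounds, from 352, 382 and 423 to 65.9, 62.3 and 36.5 (log2 -2.83, adjusted p = 0.000294). Neutrophil markers were lower in 6 of 16 cases and higher in 0 (37.5% and 0%). The neutrophil protease gene npsn fell from 604, 286 and 341 to 39.1, 31.2 and 39.2 (log2 -3.39, adjusted p = 0.000139) and srgn, a proteoglycan gene of granules, from 2214, 1203 and 1178 to 466, 296 and 291 (log2 -2.09, adjusted p = 0.000196). Neutrophil genes called lower numbered 2 without 1 dpa replicate 1 or 4 dpa replicate 3 and 3 with scaling to all other genes. Macrophage genes were lower in 8 of 22 cases and higher in 1 (36.4% and 4.55%). Macrophage genes called higher numbered 0 without 1 dpa replicate 3 or 4 dpa replicate 1, 2 or 3 or with scaling to all other genes. Macrophage genes called lower numbered 3 without 1 dpa replicate 1 or with scaling to all other genes, 4 without 4 dpa replicate 1 or 3 and 5 without 4 dpa replicate 2. Among those that fell were mrc1b, a mannose receptor gene (log2 -1.40), a call lost with scaling to all other genes (adjusted p = 0.106), and IRF8, a macrophage transcription factor (log2 -1.73, and -1.44 without 1 dpa replicate 1). Lymphocyte genes gave 1 higher and 1 lower call in 19 (5.26% each, below the 12.4% and 17.2% of all tested genes), TCF7 and IKZF1, and the latter was called in 7 of 19 settings. Lymphocyte genes called lower numbered 0 without 1 dpa replicate 1 or 3 or 4 dpa replicate 1 or 2 or with scaling to all other genes. Summed over their listed genes, neutrophil counts were 5046, 16548 and 7940 at 0 dpa, 11143, 6207 and 6159.6 at 1 dpa and 3410.1, 3242 and 2895 at 4 dpa. Macrophage counts were 11179, 19572 and 14310, then 33899, 22466 and 21042, then 17642, 17438 and 17253. In both, 1 dpa replicate 1 was the highest of the 6 compared libraries. The inflammatory cytokine and NF-kB sums were 54931, 122722 and 82219 at 0 dpa, 36756, 34045 and 29966 at 1 dpa and 17680, 18116 and 16420 at 4 dpa. That list as a whole was thus highest in uncut fins and not at 1 dpa. The part of neutrophils and macrophages in the fall of cytokine genes was not tested. The sum of the listed lymphocyte genes was 2702, 2896 and 2978 at 1 dpa and 4001, 4454 and 4521 at 4 dpa. This sum includes TCF7, whose counts are given with the Wnt list, and the rise of TCF7 was larger than that of the sum. The median log2 change of the lymphocyte list was -0.05, so the sum gives no direction for its other members.

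Of 31 complement and coagulation genes tested, 5 rose and 6 fell, shares of 16.1% and 19.4% that lie near the 12.4% and 17.2% of all tested genes. Genes of this list called higher numbered 3 without 4 dpa replicate 2. c4b, a complement component gene, fell from 620.1, 456 and 487 to 38.002, 31.2 and 43.3 (log2 -3.76, SE 0.27, adjusted p = 1.03e-07). f5, which encodes coagulation factor V, was at 15.7, 17.3 and 12.6 at 0 dpa, at 1097, 1425 and 1366 at 1 dpa and at 215, 309 and 235 at 4 dpa (log2 -2.36, SE 0.22, adjusted p = 1.22e-06). MASP1, a protease of the lectin pathway, rose from 49.9, 44.5 and 40.5 to 184, 125 and 203 (log2 1.88, adjusted p = 3.88e-05), and the endothelial factor vwf from 85.6, 113 and 108 to 332, 304 and 361 (log2 1.70, adjusted p = 1.34e-06).

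Epidermal genes moved both ways, and those of the outer layers mostly fell or were not called. Among 24 outer epidermis genes, 10 fell and 1 rose, and the lower count lay between 6 and 10 (6 without 4 dpa replicate 2 or 3 or with scaling to all other genes) and the higher count between 0 and 1 (0 without 1 dpa replicate 1 or 4 dpa replicate 2 or 3) when single libraries were left out. krt4, a keratin of surface cells, was at 43453, 82305 and 64332 at 0 dpa, at 241857, 205974 and 191720 at 1 dpa and at 39797, 41550.3 and 33999.9 at 4 dpa (log2 -2.47, SE 0.31, adjusted p = 3.23e-05). The list as a whole did not share this peak at 1 dpa. Its summed counts were 1336425, 4543821 and 2144307 at 0 dpa, 1634900, 811920 and 823981 at 1 dpa and 423189, 360690 and 321031 at 4 dpa. The adhesion gene epcam fell from 58820.1, 25558 and 23036 to 8328, 8250.3 and 6659.6 (log2 -2.08, adjusted p = 0.00408), with 1 dpa replicate 1 more than 2-fold above the others of its group (log2 -1.65, adjusted p = 0.0265 without it). Basal epidermis genes divided into 7 higher and 6 lower among 22 (31.8% and 27.3%, against 12.4% and 17.2% of all tested genes). The FRAS1-related genes FREM3 and FREM2, whose products join basal epidermis to the underlying tissue, rose: FREM3 went from 85.6, 117 and 76.6 to 1225, 1549.5 and 997 (log2 3.74, SE 0.29, adjusted p = 1.64e-07) and a copy of FREM2 from 922, 1303 and 554 to 6168, 6836 and 5400.2 (log2 2.80, adjusted p = 2.95e-06). The laminin subunits parted. LAMA5, a laminin alpha chain gene, rose from 1223, 1912 and 1555 to 7187, 7526 and 7770.2 (log2 2.28, adjusted p = 1.22e-06), whereas lamb3, a laminin beta chain gene of migrating and anchoring keratinocytes, fell from 718, 959 and 965 to 155, 104 and 124 (log2 -2.78, adjusted p = 4.31e-06). krt94, a keratin gene, was at 4596, 13845 and 5004 at 0 dpa, at 213724, 127392 and 106659 at 1 dpa and at 38232, 33859 and 29330.2 at 4 dpa (log2 -2.09, adjusted p = 0.000818). Mucous cell and ionocyte genes gave 1 higher and 6 lower calls in 23, which is 4.35% and 26.1% against 12.4% and 17.2% of all tested genes. Mucous cell and ionocyte genes called lower numbered 2 without 1 dpa replicate 1 or with scaling to all other genes and 3 without 4 dpa replicate 2 or 3.

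Many vessel genes rose: 15 of 31 endothelial and lymphatic genes were higher and 1 lower, and the higher count lay between 12 and 15 when single libraries were left out. sox18, a transcription factor of vessel formation, went from 59.2, 70.7 and 88.9 to 312, 312 and 308 (log2 2.095, adjusted p = 0.00104), and stab2, a scavenger receptor gene, from 43.5, 85.5 and 99.1 to 306, 210.4 and 388 (log2 2.01, adjusted p = 0.000114). The exception was a copy of the ligand gene VEGFA, which fell from 776, 722 and 703 to 420.3, 416 and 357 (log2 -0.88, adjusted p = 0.00237), a call lost with scaling to all other genes (adjusted p = 0.396), while another copy rose (log2 0.56, adjusted p = 0.0368). Endothelium and lymphatic genes called lower numbered 0 with scaling to all other genes. Among mural and smooth muscle genes, acta2, smooth muscle actin, fell from 409.6, 395 and 558 to 52.5, 23.4 and 48.7 (log2 -3.48, SE 0.35, adjusted p = 2.61e-06) and the more abundant TAGLN copy from 32802, 16378 and 14328 to 3277, 2898 and 2454 (log2 -2.79, adjusted p = 8.87e-05). MYLK rose in 1 copy, from 143.4, 143.1 and 137 to 505, 452 and 499 (log2 1.77, adjusted p = 4.64e-07). Counts for this list were 3 higher and 3 lower of 17. Mural and smooth muscle genes called higher numbered 1 without 1 dpa replicate 1.

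Nerve genes moved both ways. Of 20 Schwann cell and axon genes, 3 rose and 7 fell. The myelin gene mbpa fell from 231, 82.9 and 101 to 10.1, 2.6 and 18.9 (log2 -3.76, adjusted p = 0.00907). mbpa passed the filter only through its 1 dpa counts. Neuronal genes were found on both sides. gap43, a protein of growing axons, fell from 184, 265 and 231 to 52.5, 61.0 and 73.0 (log2 -1.85, adjusted p = 0.000118). Among those that rose were ELAVL4, a neuronal RNA-binding protein, which went from 35.7, 31.4 and 60.8 to 226, 183 and 177 (log2 2.22, SE 0.21, adjusted p = 1.75e-06) and a copy of STMN2, a microtubule regulator, from 27.1, 36.6 and 56.3 to 87.2, 196 and 100.1 (log2 1.62, adjusted p = 0.00456). A copy of NGFR, the neurotrophin receptor, rose by 1.17 on the log2 scale. The lower count of this list lay between 5 and 7 when single libraries were left out.

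Among melanocyte genes 0% were called higher and 23.5% lower, and among iridophore and xanthophore genes 8.70% and 34.8%. Over all tested genes these shares were 12.4% and 17.2%. MC1R, the melanocortin receptor of melanocytes, fell from 219, 87.2 and 108 to 42.5, 44.2 and 18.9 (log2 -1.92, adjusted p = 0.00734), a call lost with scaling to all other genes (adjusted p = 0.0522), and 4 of 17 melanocyte genes were lower and 0 higher. Melanocyte genes called higher numbered 1 without 1 dpa replicate 3. Melanocyte genes called lower numbered 2 without 1 dpa replicate 1 or 2 or 4 dpa replicate 3 and 0 with scaling to all other genes. ltk, a receptor kinase gene of iridophores, rose from 123, 136 and 131 to 313, 283 and 307 (log2 1.21, SE 0.15, adjusted p = 2.77e-05), and GPNMB, a melanosome and macrophage glycoprotein, fell from 796, 693 and 763 to 154, 210.4 and 235 (log2 -1.92, adjusted p = 6.72e-06). Among 23 iridophore and xanthophore genes 2 were higher and 8 lower. Iridophore and xanthophore genes called higher numbered 1 with any 1 library left out. Iridophore and xanthophore genes called lower numbered 2 without 1 dpa replicate 1 or 4 dpa replicate 3, 5 without 1 dpa replicate 3 or 4 dpa replicate 1 and 3 without 4 dpa replicate 2 or with scaling to all other genes. Erythrocyte genes gave 1 higher and 1 lower call in 16 (6.25% and 6.25%), and skeletal muscle genes 2 and 1 in 16 (12.5% and 6.25%). These shares lie near or below those of all tested genes. The erythrocyte genes called were RHAG and UROD. Erythrocyte genes called higher numbered 0 without 1 dpa replicate 1 or 2 or 4 dpa replicate 1 or 2. Erythrocyte genes called lower numbered 0 without 1 dpa replicate 1 or 4 dpa replicate 2 or 3. Skeletal muscle genes called higher numbered 1 without 1 dpa replicate 1 or 3 or 4 dpa replicate 1, 2 or 3. Skeletal muscle genes called lower numbered 0 without 1 dpa replicate 1.

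**Figure D4:**
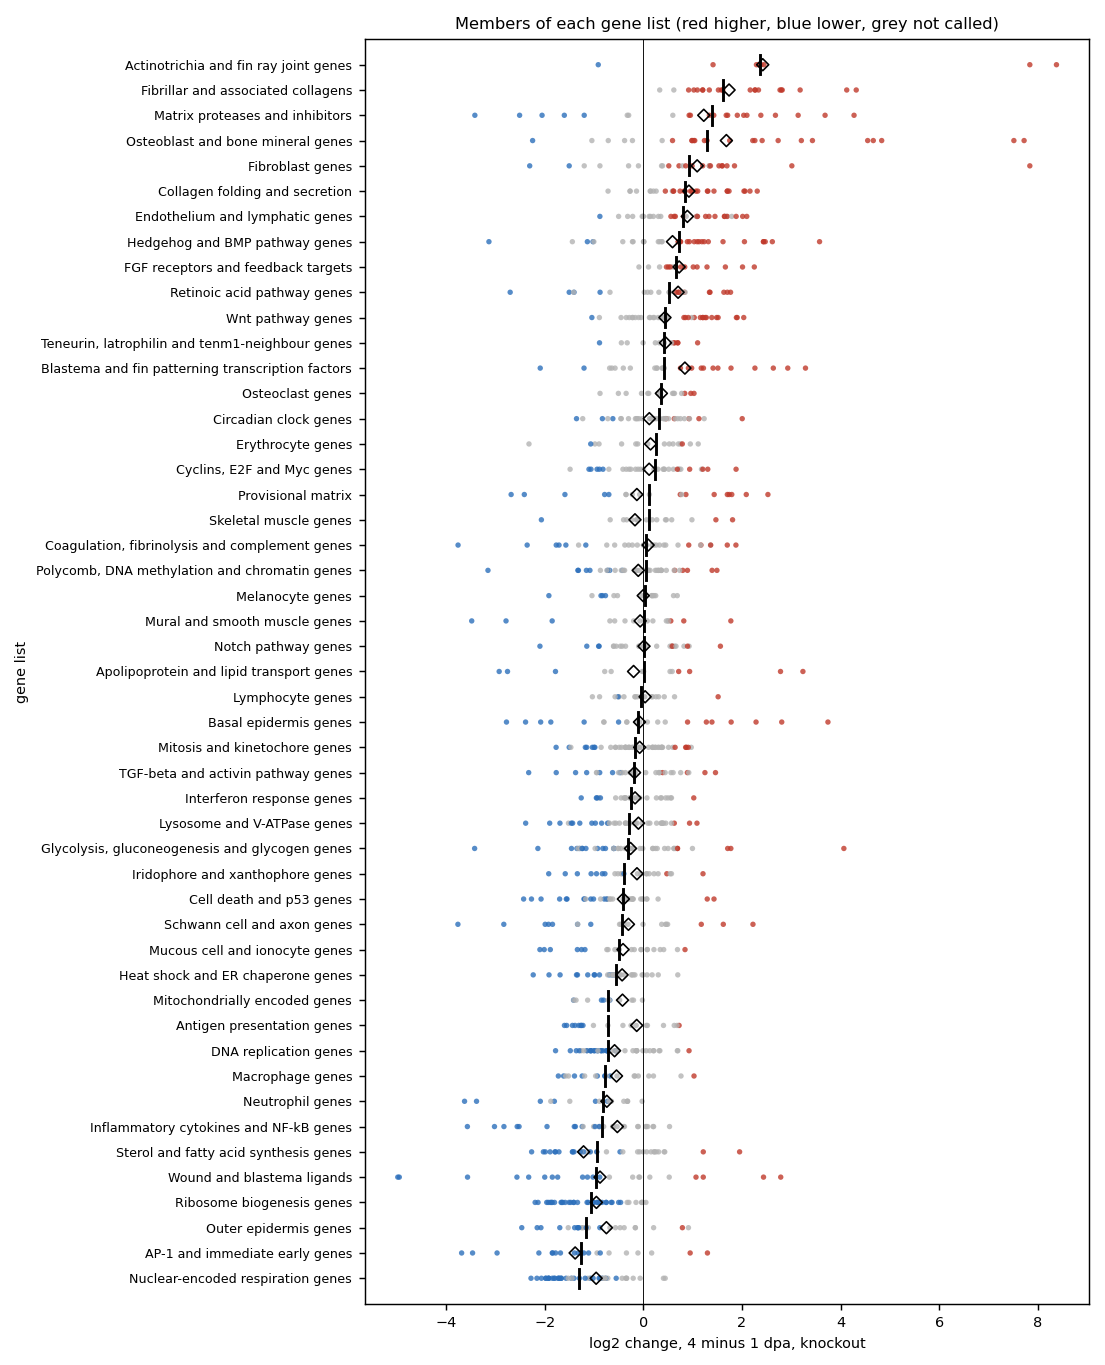
Log2 change from 1 to 4 dpa in KO fins (horizontal axis) for the tested members of the 49 gene lists (vertical axis, ordered by median), with 1 point per gene, red if called higher, blue if called lower and grey if not called. Vertical bars are list medians and open diamonds the medians without 1 dpa replicate 1; the median runs from 2.36 for actinotrichia and joint genes to -1.300 for nuclear-encoded respiration genes.

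With scaling to all other genes the medians of 10 lists turned from negative to positive, those of basal epidermis, lymphocyte, interferon response, mitosis, iridophore and xanthophore, Schwann cell and axon, TGF-beta and activin, glycolysis, cell death and lysosome genes, so that no direction is given for these lists as a whole. Against 12.4% higher and 17.2% lower over all tested genes, the shares of calls were 12.5% and 21.9% in the TGF-beta and activin list, 17.6% and 17.6% among mural and smooth muscle genes, 15.6% and 15.6% among cyclin, E2F and Myc genes, 8.51% and 14.9% among mitosis genes and 3.85% and 15.4% among interferon response genes. These shares lie near or below those of all genes, apart from a lower share somewhat above in the TGF-beta list, and the genes named from these lists are described one by one. For other lists given above by counts alone, the shares higher and lower follow. Collagens had 90.5% and 0%, collagen folding genes 70.0% and 0%, osteoblast genes 76.0% and 4.0%, and fibroblast genes 58.3% and 8.33%. Wnt genes had 38.5% and 2.56%, hedgehog and BMP genes 55.9% and 8.82%, and FGF genes 70.6% and 0%. Vessel genes had 48.4% and 3.23%, blastema and patterning factors 46.2% and 7.69%, and outer epidermis genes 4.17% and 41.7%.

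Genes of growth and energy metabolism were lower at 4 dpa in many cases, and how many depended on single libraries. Of 38 ribosome biogenesis genes, 31 fell and 0 rose (median log2 -1.07), and the lower count lay between 24 and 29 (17 with scaling to all other genes) when single libraries were left out. With a term for the share of the dominant genes in the fit, 33 were called lower. RRS1, a factor for the large ribosomal subunit, was at 2881, 819 and 829 at 1 dpa and at 359.9, 317 and 176 at 4 dpa (log2 -2.198, adjusted p = 0.00265), and NIP7 at 1999, 802 and 870.3 and then 312, 235 and 220.5 (log2 -2.14, adjusted p = 0.00277). In both, replicate 1 was more than 2-fold above the other 1 dpa libraries, and both stayed called without it (log2 -1.597, adjusted p = 0.0138 for RRS1 and log2 -1.72, adjusted p = 0.0191 for NIP7). Respiration genes encoded in the nucleus were called lower in 28 of 43 cases and higher in 0 (median log2 -1.300), and the lower count lay between 5 and 30 (5 without 1 dpa replicate 1 and 8 without 4 dpa replicate 3) when single libraries were left out. The lower count was 36 with the term for the share of the dominant genes. Replicate 1 was the highest 1 dpa library for 38 of the 43, and replicate 2, which also had a low share of dominant genes (2.71%), was the highest 0 dpa library for 39. COX7A2, a subunit of cytochrome c oxidase, shows this pattern in the copy with the larger change: 5645, 44067 and 10428 at 0 dpa, 20456, 5407 and 5835 at 1 dpa and 2159, 1937 and 1721 at 4 dpa (log2 -2.16, adjusted p = 0.0276), a call lost without 1 dpa replicate 1 or 4 dpa replicate 1, 2 or 3 (adjusted p = 0.0549 to 0.156). Mitochondrially encoded genes were lower in 4 of 13 cases. The percentages called lower were 81.6% for ribosome biogenesis, 65.1% for nuclear-encoded respiration and 30.8% for mitochondrially encoded genes. Over all tested genes 17.2% were called lower. Mitochondrially encoded genes called lower numbered 0 without 1 dpa replicate 1 or 4 dpa replicate 3, 2 without 4 dpa replicate 1 or 2 and 1 with scaling to all other genes. With the share term they numbered 7.

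Calls among cell cycle genes depended on single libraries in the same way. DNA replication genes were lower in 20 of 45 cases and higher in 1 (44.4% and 2.22%, against 17.2% and 12.4% of all tested genes). DNA replication genes called higher numbered 0 without 1 dpa replicate 1 or 2 or 4 dpa replicate 2 or 3. DNA replication genes called lower numbered 7 without 1 dpa replicate 1 or 4 dpa replicate 3, 10 without 4 dpa replicate 1, 8 without 4 dpa replicate 2 and 5 with scaling to all other genes. RPA2, a subunit of the single-strand binding complex, was at 5222, 1917 and 2138 and then 968, 830.0 and 651 (log2 -1.78, adjusted p = 0.00714), and stayed called without 1 dpa replicate 1 (log2 -1.33, adjusted p = 0.0468). MCM7, a replicative helicase subunit, was called higher, from 487, 776 and 946 to 1071, 1362 and 1677 (log2 0.92, adjusted p = 0.0379), a call lost without 1 dpa replicate 1 or 2 or 4 dpa replicate 2 or 3 (adjusted p = 0.0534 to 0.195). Of 47 mitosis genes 4 were higher and 7 lower. Mitosis and kinetochore genes called higher numbered 1 without 1 dpa replicate 1 and 0 without 4 dpa replicate 3. Mitosis and kinetochore genes called lower numbered 1 without 1 dpa replicate 1 and 2 without 4 dpa replicate 2 or 3 or with scaling to all other genes. CDK1, the mitotic kinase, was at 54.8, 93.3 and 64.2 at 0 dpa, at 1709, 759.8 and 576 at 1 dpa and at 463, 353 and 392.3 at 4 dpa (log2 -1.18, adjusted p = 0.0142), a call lost without 1 dpa replicate 1 or 4 dpa replicate 2 (adjusted p = 0.0528 to 0.0836) and with scaling to all other genes (adjusted p = 0.0785). It lay above the 0 dpa level at both later times. Among 32 cyclin, E2F and Myc genes and cell cycle inhibitors, 5 rose and 5 fell. Genes of this group called higher numbered 3 without 1 dpa replicate 1 or 4 dpa replicate 1 or 2 and 8 with scaling to all other genes. Genes of this group called lower numbered 2 without 1 dpa replicate 1 or 4 dpa replicate 2 or 3 and 1 with scaling to all other genes. cdkn1ca, a p57 gene, rose from 29.97, 13.96 and 15.8 to 64.8, 72.7 and 78.5 (log2 1.88, adjusted p = 0.00124), a copy of CDKN1B, the p27 gene, from 387, 666 and 686 to 1386, 1270.3 and 1229.6 (log2 1.203, adjusted p = 0.00277), and RBL2, the p130 pocket protein gene, from 198, 364 and 339 to 719, 769 and 671 (log2 1.304, adjusted p = 0.00123). The p21 gene cdkn1a instead fell, from 432, 389 and 367 to 244, 156 and 176 (log2 -1.07, adjusted p = 0.0208), a call lost without 1 dpa replicate 1 or 4 dpa replicate 2 or 3 (adjusted p = 0.0701 to 0.0806) and with scaling to all other genes (adjusted p = 0.187).

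Many sterol synthesis genes fell with and without 1 dpa replicate 1: 16 of 34 sterol and fatty acid synthesis genes fell and 2 rose. These make 47.1% and 5.88%, against 17.2% and 12.4% of all tested genes. When single libraries were left out, the lower count lay between 13 and 20 (9 with scaling to all other genes) and the higher count between 1 and 2 (1 without 4 dpa replicate 1, 2 or 3). MSMO1, an enzyme of cholesterol synthesis, went from 1845, 2819 and 1995 to 409, 540.3 and 417 (log2 -2.27, SE 0.41, adjusted p = 0.000823), HSD17B7 from 1803, 2231 and 2754 to 479, 531 and 634 (log2 -2.03, adjusted p = 0.000281) and MVD, of the mevalonate pathway, from 660.0, 628 and 579.8 to 163.2, 189.6 and 122 (log2 -1.99, adjusted p = 0.00195). The groups did not overlap in any of these 3 genes. The same holds for 51.3% of all tested genes, so this trait is no further result. ACACB, an acetyl-CoA carboxylase gene, rose from 74.9, 105 and 122 to 319, 327 and 539.7 (log2 1.95, adjusted p = 0.000473).

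Among 42 glycolysis and glycogen genes, 13 fell and 5 rose (31.0% and 11.9%, against 17.2% and 12.4% of all tested genes). A copy of SLC16A3, a lactate exporter gene, fell from 284, 379 and 322 to 13.4, 36.4 and 51.4 (log2 -3.43, SE 0.39, adjusted p = 1.14e-05), and LDHA, lactate dehydrogenase, from 4794, 3358 and 3569 to 1433, 1559 and 1231 (log2 -1.46, adjusted p = 0.00249). A copy of PDK2, a kinase that holds back pyruvate oxidation, rose from 54.2, 66.3 and 60.8 to 183, 156 and 276 (log2 1.71, adjusted p = 0.000104). The lower count lay between 8 and 12 (8 without 4 dpa replicate 3 or with scaling to all other genes) when single libraries were left out.

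Stress genes were lower in part. Of 34 heat shock and endoplasmic reticulum chaperone genes 13 were lower and 0 higher. These make 38.2% and 0%, against 17.2% and 12.4% of all tested genes. Heat shock and ER chaperone genes called lower numbered 4 without 1 dpa replicate 1, 8 without 4 dpa replicate 2 and 5 without 4 dpa replicate 3 or with scaling to all other genes. hsp70l, an inducible heat shock gene, fell from 263, 237 and 187 to 78.2, 52.0 and 51.4 (log2 -1.92, adjusted p = 0.00128) and stayed called without 1 dpa replicate 1 (log2 -1.81, adjusted p = 0.00765). Cell death and p53 genes were lower in 12 of 39 cases and higher in 2 (30.8% and 5.13%, against 17.2% and 12.4% of all tested genes). Cell death and p53 genes called higher numbered 1 without 1 dpa replicate 1 or 4 dpa replicate 2 or 3. Cell death and p53 genes called lower numbered 5 without 1 dpa replicate 1, 6 without 4 dpa replicate 3 and 8 with scaling to all other genes. A copy of the stress gene GADD45A fell from 541, 323 and 331 to 76.0, 90.9 and 51.4 (log2 -2.43, adjusted p = 0.000491), and SESN1, a p53 target gene, rose from 316, 295 and 311 to 709.7, 639 and 946 (log2 1.29, adjusted p = 0.00237).

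Among 26 genes of the interferon response 1 was called higher and 4 lower, and among 19 antigen presentation genes 1 higher and 8 lower. In the antigen presentation list these make 5.26% and 42.1%, against 12.4% and 17.2% of all tested genes. Antigen presentation genes called higher numbered 0 without 1 dpa replicate 1 or 4 dpa replicate 1. Antigen presentation genes called lower numbered 0 without 1 dpa replicate 1, 3 without 4 dpa replicate 2 and 1 without 4 dpa replicate 3. Interferon response genes called higher numbered 0 without 1 dpa replicate 2 or 3 or 4 dpa replicate 1 or 2 and 2 with scaling to all other genes. Interferon response genes called lower numbered 2 without 1 dpa replicate 1 or 4 dpa replicate 2, 1 without 4 dpa replicate 3 and 0 with scaling to all other genes. b2m, the light chain of class I molecules, was at 14362, 6264 and 6387 at 1 dpa, where replicate 1 was more than 2-fold above the others, and at 3416, 2970.5 and 2826 at 4 dpa (log2 -1.44, adjusted p = 0.0171), a call lost without 1 dpa replicate 1 or 4 dpa replicate 2 or 3 (adjusted p = 0.05 to 0.104). pkz, an interferon-induced sensor kinase gene, fell from 146, 137 and 178 to 93.9, 85.7 and 59.5 (log2 -0.96, adjusted p = 0.0136), a call lost without 4 dpa replicate 3 (adjusted p = 0.0743) and with scaling to all other genes (adjusted p = 0.36).

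Most genes called in WT fins were also called in KO fins, in the same direction. Between 1 and 4 dpa, 3148 of the same 21589 genes (14.6%) were called in WT, 1641 higher (7.6%) and 1507 lower (6.98%). Of these, 2749 were called in the same direction in KO, which is 87.3% of the WT calls and 43.1% of the KO calls, and 1 was called in the opposite direction. The WT counts depended on single libraries: without WT 1 dpa replicate 1 or 2, 1585 and 1596 genes were called, and without WT 4 dpa replicate 2 or 3, 2057 and 2038. Across the 21589 genes the log2 changes of the genotypes had a Pearson correlation of 0.84 and a Spearman correlation of 0.82, given as a description of genes measured in the same libraries, which share depth and scaling. and1 stood at 893, 886 and 1143 and then 176625, 246395 and 241599 in WT (log2 7.82), and enam at 161, 185 and 168 and then 20174, 23373 and 29821 (log2 7.13). HBEGF changed by log2 -3.46 and il11b by log2 -3.44 in WT.

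The difference between the genotypes in this change was tested directly, as the interaction of genotype and time. limma called 0 genes, edgeR 0 and DESeq2 0, and 536 genes had an unadjusted limma p under 0.05. The median standard error of the difference was 0.42 on the log2 scale, and a p that misses the threshold does not show that the genotypes changed alike. The smallest adjusted p was 0.226, for the dicarboxylate carrier gene SLC25A10, in 1 of its copies. It stood at 10.7, 10.47 and 13.5 at 1 dpa and 11.2, 7.79 and 16.2 at 4 dpa in KO, and at 14.5, 13.1 and 14.5 and then 0 in all 3 libraries in WT. There the 3 reads that a count of 0 allows correspond to values of 7.42 to 7.47. PYGL, liver glycogen phosphorylase, was at 1.43, 0 and 0 at 1 dpa in KO, which is 2 reads in all, and at 15.6, 25.98 and 24.3 at 4 dpa (adjusted p = 9.63e-05). PYGL passed the filter only through its KO 4 dpa counts. In WT it was at 4.36, 6.57 and 11.6 and then 24.7, 4.98 and 4.95, with a high value in 1 library (interaction adjusted p = 0.999). CYP26C1, which rose in KO, was at 79.9, 86.1 and 66.6 and then 89.0, 49.8 and 89.0 in WT (log2 -0.07; interaction adjusted p = 0.999). GADD45A had a log2 change of -0.88 in WT (adjusted p = 0.159) against -2.43 in KO, with an interaction adjusted p of 0.999.

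**Figure D5:**
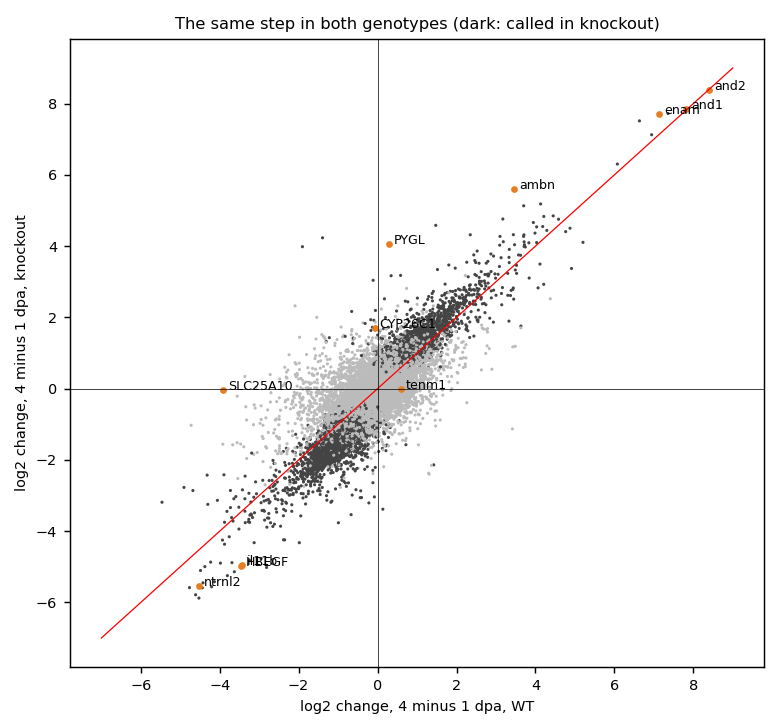
Log2 change from 1 to 4 dpa in KO fins (vertical axis) against that in WT fins (horizontal axis), with 1 point per tested gene, dark if called in KO, and orange for the labelled genes; the red line marks equal change. Most points follow the line; SLC25A10 and PYGL lie far from it, at low counts.

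tenm1, a teneurin gene named here because earlier results of these data set the genotypes apart by it, was not called in KO between these times. It stood at 1660.4, 1891 and 2029.9 at 1 dpa and 1851, 1761 and 1924 at 4 dpa (log2 -0.01, SE 0.17, adjusted p = 0.978), and at 2450.2, 2006 and 2361 at 0 dpa. Its groups overlapped, and the sign of so small a change differed between settings. In WT the counts were 405, 493 and 407 and then 732, 538 and 705 (log2 0.59, adjusted p = 0.0307), and the difference between the genotypes had an adjusted p of 0.999. tenm3, a related adhesion gene, rose in KO from 2466, 3339 and 3151 to 6169.8, 6054 and 6821 (log2 1.098, adjusted p = 0.000111). Copies or relatives of the latrophilin receptors that bind teneurins also rose, ADGRL3 by 0.70 and ADGRL2 by 0.69 on the log2 scale. Of 13 teneurin, latrophilin and neighbouring genes 5 rose and 1 fell (38.5% and 7.69%, against 12.4% and 17.2% of all tested genes). Members called higher numbered 3 without 1 dpa replicate 2 or 4 dpa replicate 3. Members called lower numbered 0 with scaling to all other genes. casp22, a caspase gene, fell from 623, 396 and 345 to 251, 221 and 238 (log2 -0.89, adjusted p = 0.00591), a call lost with scaling to all other genes (adjusted p = 0.181).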

How the data were processed

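Pooled caudal fin clips of s1 KO and WT zebrafish taken at 0, 1 and 4 dpa were the source of the RNA. Per the labels' protocols, total RNA was copied to cDNA, tagged with Tn5 and sequenced from both ends on an MGI platform. The submitters' processing notes name Trim Galore 0.6.7, cutadapt 3.5, STAR 2.7.10 and the build danRer11. No source used here gives the annotation or whether counting used strand, so overlapping and antisense genes may share reads. Each deposited value is a normalised count (a signal), which is a whole count divided by a library factor: whole reads were recovered for 100% of values at a tolerance of 0.001. Of 32520 IDs, 5662 are at 0 throughout.

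The scale log2(normalised count + 1) was used, on which changes of low genes come out too small. With limma-trend (limma 3.58.1, R 4.3.3), means of 6 groups were estimated from all 18 libraries (12 residual degrees of freedom), with two-sided tests adjusted by the Benjamini-Hochberg method over the 21589 tested genes and a threshold of 0.05. Of these, 19599 reached 10 in all 6 compared libraries. Just inside the filter, 575 genes did so in exactly 3 libraries (212 of them in all 3 of 1 time, so that they had to differ), of which 143 were called. Just outside it, 534 did so in exactly 2. Some of the genes with printed counts passed the filter only through 1 time. Through 4 dpa these were msx1a, scpp5, scpp7, ambn, WNT16, PYGL, col1a1a, the SHH copy and the MDK copy that rose. Through 1 dpa they were scpp8, il11b, rnf41l, ihhb and mbpa. The adjusted p values of all these genes are therefore no independent support for a difference. Alternatives were edgeR 4.0.16 (2743 higher and 3904 lower) and DESeq2 1.42.0 (3102 and 4621) on the whole reads, other filters, pseudocounts, scalings and weights, a term for the share of the dominant genes, a replicate block and each library left out. A floor of 3 reads covers counting error only, as PCR reads are not independent molecules. Pools are separate in the labels, and replicates differed by more than counting error.

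Symbols were found for 29201 IDs, of which 6136 share a symbol and are called copies; values of near-identical copies are uncertain, and human-style symbols are common in that table. Of 1404 entries in 49 lists, 500 matched by symbol, 830 by family symbol, 21 by synonym and 53 did not match. The genes compared, the lists and the tests were chosen with earlier results of these data known. The text names the called genes of largest change (at most 15 in each direction) with non-overlapping groups, a mean of at least 100 in the higher group and a descriptive symbol, up to 3 higher and 3 lower called members of each list, and tenm1; COL1A2, SP7, TP63, SLC25A10, and members and copies named to account for a small count were named besides, after their values were seen. Some genes that this rule names are not reported here. No set test was run, and no sequence is shown.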

Additional observations from a re-analysis of the deposited data

How the results depend on the processing

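Of the 241 called genes eligible for naming, 157 were called in every alternative that gave a value. tenm1 was the 1 gene that turned sign, at values near 0: 0.00011 with TMM scaling, 0.012 with edgeR, 0.44 with scaling to all other genes, and between -0.087 and 0.057 with 1 KO library left out (main value -0.01, never called in KO). KO genes called higher numbered 4156 with library weights and 1461 at a threshold of 0.01, and between 1701 and 2616 with 1 library left out. KO genes called lower numbered 1867 with scaling to all other genes and 1551 at 0.01, and between 1612 and 3626 with 1 library left out. Without the 4 libraries with under 20% of reads in the dominant genes, a setting chosen after seeing the data, they were 2856 and 4005. These 4 include 1 dpa replicate 1. That setting ended the call of 12 of the genes eligible for naming, against 65 without 1 dpa replicate 1 alone. WT calls numbered 9255 with library weights, 5307 with only the compared libraries, 5609 with the share term, 7832 without those 4 libraries and 1405 at 0.01, and between 1585 and 2982 with 1 library left out. The interaction called 4 genes with no filter and 3 with the share term, and 0 in the other settings. Beyond the construction of each setting, the cause was not tested.

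The replicate numbers were not treated as pairing the samples: deviations of same-numbered KO libraries correlated at 0.25, 0.060 and 0.20 across genes, and not every library correlated best with its own number. With the number as a block, 2225 genes were called higher, 2941 lower, 2311 in WT and 0 in the interaction, and 23 of the genes eligible for naming lost their call, COX7A2 (adjusted p = 0.0521) and csf1ra (adjusted p = 0.0838) among them. The estimation of library weights gave a convergence warning in limma, so those counts are uncertain. Depth limits the lowest genes: 3 reads are worth 2.14 to 4.06 in the compared libraries.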

Other observations

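The 2 genes annotated FABP7, brain-type fatty acid binding proteins, moved in opposite directions in KO fins: one copy rose from 22.8, 14.8 and 20.3 at 1 dpa to 197, 177 and 189 at 4 dpa (log2 3.23, adjusted p = 0.000269) and the other fell from 1127, 479 and 405 to 87.2, 90.9 and 86.6 (log2 -2.76, adjusted p = 0.002). fabp4a, another fatty acid binding protein gene, fell from 6247, 1298 and 1745 to 373, 329 and 259.7 (log2 -2.93, adjusted p = 0.00188), with an adjusted p of 0.0114 without 1 dpa replicate 1, where it was highest. A copy of LPL, the lipase that frees fatty acids from lipoproteins, rose from 25.7, 13.96 and 18.01 to 93.9, 169 and 152 (log2 2.78, adjusted p = 0.000235). Of 13 tested lipid transport genes 4 rose and 3 fell (30.8% and 23.1%, against 12.4% and 17.2% of all tested genes). Among 39 circadian clock genes 5 rose and 3 fell, 12.8% and 7.69% against 12.4% and 17.2% of all tested genes. Circadian clock genes called higher numbered 2 without 1 dpa replicate 1, 3 without 4 dpa replicate 2 or 3 and 8 with scaling to all other genes. Circadian clock genes called lower numbered 1 without 4 dpa replicate 3 or with scaling to all other genes. A copy of PER1, a light- and clock-driven repressor, was at 377, 271 and 435 at 0 dpa, at 108, 133 and 177 at 1 dpa and at 513, 573 and 563 at 4 dpa (log2 2.003, adjusted p = 0.000839). NFIL3, a clock-related repressor, fell from 1278, 1347 and 957 to 516, 431 and 437 (log2 -1.36, adjusted p = 7.95e-05). The hour of day at which fins were cut was not found in the labels, and clock phase and stage cannot be told apart.

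Of 39 Polycomb, DNA methylation and chromatin genes 5 rose and 8 fell, which is 12.8% and 20.5%, near the 12.4% and 17.2% of all tested genes. Chromatin genes called lower numbered 2 without 1 dpa replicate 1 or 4 dpa replicate 2 or 3 or with scaling to all other genes and 5 without 4 dpa replicate 1. cbx7a, a Polycomb reader gene, fell from 1669, 856 and 688 to 119.6, 110.4 and 103 (log2 -3.16, SE 0.36, adjusted p = 9.96e-06). kdm6bb, a histone demethylase gene that opposes Polycomb, rose from 1003, 1704 and 1627 to 4131, 3782 and 3949 (log2 1.49, adjusted p = 0.00153), and a copy of the DNA methyltransferase gene DNMT3A from 493, 974 and 1012 to 2024, 2195 and 1982 (log2 1.39, adjusted p = 0.00431). Of 40 lysosome genes 3 rose and 10 fell, which is 7.5% and 25% against 12.4% and 17.2% of all tested genes. Lysosome and V-ATPase genes called higher numbered 5 with scaling to all other genes. Lysosome and V-ATPase genes called lower numbered 4 without 1 dpa replicate 1 or 4 dpa replicate 3 and 6 without 4 dpa replicate 1 or 2 or with scaling to all other genes. CD63, a membrane protein of late endosomes, fell from 1519.9, 1069 and 837 to 399, 299 and 334 (log2 -1.69, adjusted p = 5.76e-05), and GLB1, lysosomal beta-galactosidase, rose from 74.2, 119.5 and 90.1 to 201, 173 and 223 (log2 1.08, adjusted p = 0.00197).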
